A study of Mus musculus with 6 samples.

Results

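The unfolded protein response of the endoplasmic reticulum (ER) was examined in hematopoietic stem cells (HSCs) through 10 genes that were chosen by name, namely *Ern1*, *Xbp1*, *Dnajb9*, *Edem1*, *Hspa5*, *Hsp90b1*, *Calr*, *Pdia4*, *Sdf2l1* and *Herpud1*, out of 34573 genes in the count table. RNA was sequenced from Lineage- CD48-CD150+ HSCs of the bone marrow of young adult mice, in 3 libraries from Rpl22-/- mice, which lack the ribosomal protein Rpl22 in every cell from the germline on, and in 3 from Rpl22+/+ mice, all on the C57BL/6 background with no treatment named in the labels. Since the knockout was present in all tissues throughout life, a difference in these HSCs can stem from the HSCs themselves or from the animal around them, and these cannot be told apart here. The labels do not say whether the replicates came from separate mice, so each p-value measures only the spread between these libraries. Reads sufficed to test all 10 genes, and 0 of them passed an adjusted p of 0.05 between the genotypes by edgeR, against 5.57% of the 14004 genes tested. An unadjusted p below 0.05 was reached by 5 of the 10 genes and by 22.3% of all genes tested. The 4 genes grouped here as the Ire1-Xbp1 branch had nearly equal estimates below 0, and the ER chaperone *Calr* had an estimate above 0. This grouping was made by role with earlier results of these data known. By role, *Dnajb9* could also stand with the chaperones and *Edem1* with degradation. The levels of the other chaperones varied more between replicates than between genotypes.

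As background, the ER folds secreted and membrane proteins, and a load of unfolded protein there is sensed by 3 membrane proteins, Ire1, Perk and Atf6. Ire1, encoded by *Ern1*, cuts the *Xbp1* transcript so that it can be joined into the form that makes the active transcription factor, while Perk slows translation and favours that of *Atf4*, and Atf6 is cut in the Golgi to release a transcription factor. Their targets are the chaperones of the ER lumen and the machinery that takes misfolded proteins out of the ER for degradation. HSCs are known for a low rate of protein synthesis and for being sensitive to unfolded protein, and Rpl22 is known to control ER stress signaling in developing T cells. The comparison asks whether the genes of this response differ in level between Rpl22-/- and Rpl22+/+ HSCs.

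Targets of Atf6 and Xbp1 often carry an ER stress element in the promoter, made of CCAAT, any 9 bases and CCACG, or the shorter type II element made of ATTGG, any base and CCACG. RefSeq promoter windows on GRCm38.p6, which run from 250 bases before the annotated start of a gene to 50 bases after it, were matched for 10 of the 10 genes. On either strand, the first element was found in the windows of *Hspa5*, *Hsp90b1* and *Calr*, and in 0.119% of all 32851 mouse windows. The second was found in the window of *Herpud1* and in 0.0365% of all windows. The 4 genes of the Ire1-Xbp1 branch, *Pdia4* and *Sdf2l1* had neither in these windows. The CCACG box, which is part of both elements, was in the windows of 9 of the 10 genes, all but *Xbp1*, and in 32.8% of all windows. The CCAAT box, part of both elements as well (ATTGG is its other strand), was in 8 windows, all but those of *Xbp1* and *Ern1*, and in 37.4% of all windows. A further element bound by Xbp1, TGACGTGG, was in none of the 10 windows and in 0.676% of all. The 250 bases before the start are printed below for the 4 genes with a full element, because these letters separate them from the remaining members, and for *Edem1* as a gene of the Ire1-Xbp1 branch without one. Each runs 5′ to 3′ on the strand of its gene. Capitals mark the full elements in the first 4 and the CCACG boxes in *Edem1*, and the letters in *Calr*, in the second match of *Hsp90b1* and in the second box of *Edem1* are those on the opposite strand. The windows are chr2:34771840-34772089 on the forward strand, chr10:86705445-86705694 on the reverse strand, chr8:84846932-84847181 on the reverse strand, chr8:94386179-94386428 on the forward strand and chr6:108828391-108828640 on the forward strand.
Hspa5: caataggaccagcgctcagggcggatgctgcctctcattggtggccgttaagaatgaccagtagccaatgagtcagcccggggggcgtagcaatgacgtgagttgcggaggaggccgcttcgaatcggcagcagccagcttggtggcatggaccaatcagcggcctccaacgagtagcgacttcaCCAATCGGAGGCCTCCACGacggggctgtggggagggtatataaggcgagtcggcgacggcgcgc
Hsp90b1: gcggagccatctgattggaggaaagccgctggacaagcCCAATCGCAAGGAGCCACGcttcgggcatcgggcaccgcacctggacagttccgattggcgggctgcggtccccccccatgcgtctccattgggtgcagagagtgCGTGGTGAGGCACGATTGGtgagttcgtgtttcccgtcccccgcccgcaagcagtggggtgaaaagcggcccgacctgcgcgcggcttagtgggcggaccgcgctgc
Calr: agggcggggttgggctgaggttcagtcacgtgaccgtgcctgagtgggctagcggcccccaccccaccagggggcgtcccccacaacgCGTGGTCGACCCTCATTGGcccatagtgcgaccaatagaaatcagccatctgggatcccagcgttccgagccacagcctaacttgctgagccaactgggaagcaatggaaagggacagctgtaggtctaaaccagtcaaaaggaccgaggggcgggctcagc
Herpud1: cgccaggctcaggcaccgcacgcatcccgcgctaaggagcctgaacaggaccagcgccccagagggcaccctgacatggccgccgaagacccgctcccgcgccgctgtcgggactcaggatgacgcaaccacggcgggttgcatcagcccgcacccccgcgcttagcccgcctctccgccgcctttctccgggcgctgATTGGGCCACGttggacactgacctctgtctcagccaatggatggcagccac
Edem1: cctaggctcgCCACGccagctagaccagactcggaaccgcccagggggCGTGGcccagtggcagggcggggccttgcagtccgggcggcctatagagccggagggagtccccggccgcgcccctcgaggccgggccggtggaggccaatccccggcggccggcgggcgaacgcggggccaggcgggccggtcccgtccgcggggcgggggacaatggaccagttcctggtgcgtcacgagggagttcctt
The match in *Hspa5* began 65 bases before the start, the one in *Calr* 162, the one in *Herpud1* 52, and those in *Hsp90b1* 212 and 107 bases before it. *Hsp90b1* was thus the only member with a pair of full elements in its window. These distances are from the RefSeq start, and the GENCODE starts of *Hspa5*, *Hsp90b1* and *Calr* used for positions below lie inside the printed bases. A match of letters is a description of the sequence, and binding was not measured here.

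Library totals on genes ran from 9321123 reads, in Rpl22+/+ replicate 3, to 13385850 reads. The targeted gene followed the labels, with 449 to 546 *Rpl22* reads in each Rpl22-/- library and 5031 to 7001 in each Rpl22+/+ library (log2 fold change −3.75, adjusted p = 2.97e-12 by edgeR). HSC markers fixed as a list of 10 were read in every library, with a summed level of 2452 to 2594 CPM (counts scaled to a common library size) in Rpl22-/- and 2594 to 2652 CPM in Rpl22+/+ HSCs, and *Cd48*, whose protein the sort excluded, was at 4.89 to 7.30 CPM. A pair of libraries stood apart in some markers of other cell types. Rpl22+/+ replicate 3 held 388 reads of *Ighg2b* and 186 of *Igkc*, immunoglobulin genes of plasma cells, while the other libraries held 0 reads of the first and at most 2 of the second. Rpl22-/- replicate 2 held 1218 reads of *Mpo* and 243 of *Elane*, granule genes of neutrophil precursors, against at most 225 and 49 in any other library. Of the other neutrophil and monocyte markers listed, *Ctsg*, *Csf1r*, *Ly6c2* and *Ccr2* were also highest in CPM in that library. *Prtn3*, *S100a8*, *S100a9*, *Ltf*, *Camp*, *Ngp* and *Lyz2* were highest in another library.

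The 10 genes spanned a wide range of levels. Per length, in CPM per kb of annotated exon in Rpl22+/+ HSCs, *Calr* was the highest at 249 ± 35.3 (SD, n = 3), followed by *Hsp90b1* at 139 ± 29.9 and *Hspa5* at 109 ± 36.1. The libraries of *Calr* did not overlap with those of *Hsp90b1*. The ranges of *Hsp90b1* and *Hspa5* overlapped, although *Hsp90b1* was the higher in each Rpl22+/+ library. *Pdia4*, *Xbp1* and *Herpud1* followed at 37.1 ± 5.11, 35.0 ± 6.18 and 33.3 ± 2.96 CPM per kb, with overlapping ranges. *Pdia4* was above *Herpud1* in each of these libraries, whereas the place of *Xbp1* varied between them. *Sdf2l1* at 21.7 ± 6.95 and *Ern1* at 18.3 ± 1.55 overlapped. *Dnajb9* at 14.0 ± 1.60 overlapped in range with *Sdf2l1*, though below it in each Rpl22+/+ library, and did not overlap with *Ern1*. *Edem1* was the lowest at 10.3 ± 1.28 CPM per kb. In Rpl22-/- HSCs the order of the means differed in one place, with *Herpud1* at 34.4 ± 1.55 CPM per kb above *Xbp1* at 27.5 ± 2.95.

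**Figure D1:**
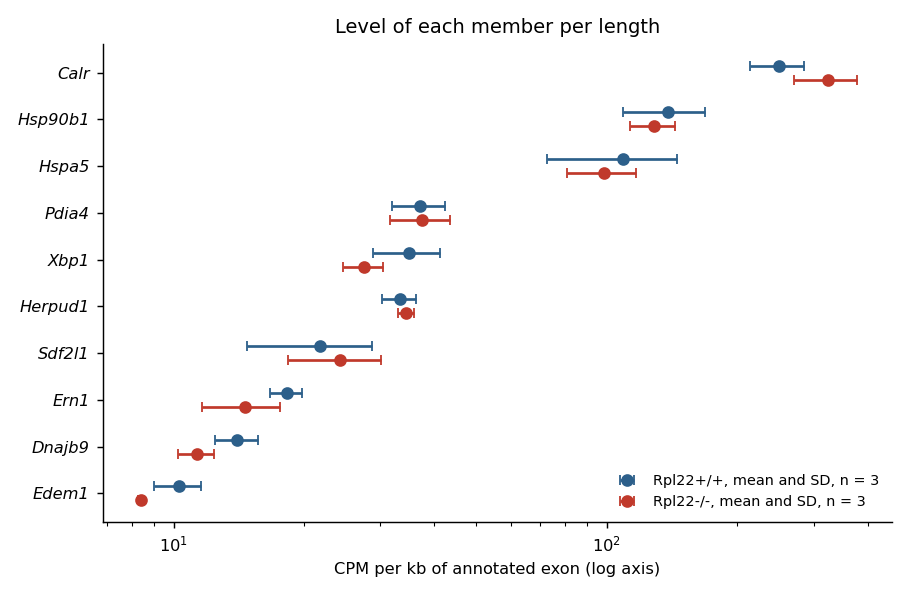
Level of each member in CPM per kb of annotated exon on a log axis, as mean and SD of 3 libraries in Rpl22+/+ (blue) and Rpl22-/- (red) HSCs. *Calr* lies at the top (249 CPM per kb in Rpl22+/+ HSCs) and *Edem1* at the bottom (10.3 CPM per kb).

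The Ire1-Xbp1 branch is given first, since it holds a sensor of the response and its transcription factor. *Ern1* encodes the sensor Ire1 itself (reverse strand of GRCm38, chromosome 11 from 106394650 to 106487852). It was at 141, 93.1 and 125 CPM in Rpl22-/- replicates 1, 2 and 3 and at 146, 139 and 163 CPM in Rpl22+/+ replicates 1, 2 and 3. The groups overlapped through Rpl22-/- replicate 1, and Rpl22-/- replicate 2, the library with the most *Mpo* and *Elane*, was the lowest. Its log2 fold change was −0.32 (standard error 0.122, 95% interval −0.58 to −0.06, adjusted p = 0.133), and without Rpl22-/- replicate 2 it was −0.17 (adjusted p = 0.369).

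*Xbp1*, the transcription factor of this branch (forward strand, chromosome 11 from 5520659 to 5525893), was at 98.0, 90.9 and 79.1 CPM in Rpl22-/- replicates 1, 2 and 3. In Rpl22+/+ replicates 1, 2 and 3 it was at 132, 117 and 92.3 CPM. Rpl22+/+ replicate 3 lay within the range of the Rpl22-/- libraries, and the other 2 Rpl22+/+ libraries lay above all of them. Its genotype difference was −0.35 on the log2 scale (standard error 0.118, 95% interval −0.60 to −0.10, adjusted p = 0.0901). It passed the threshold in 5 of 16 alternatives, the most of any member, with an adjusted p of 0.0427 and a log2 fold change of −0.48 without Rpl22+/+ replicate 3. A count per gene sums the cut and the uncut form of *Xbp1*, so that the activity of Ire1 on this transcript was not measured.

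*Dnajb9*, also named ERdj4, is a co-chaperone of BiP and an Xbp1 target (reverse strand, chromosome 12 from 44205559 to 44210326). It was at 28.0, 31.9 and 26.7 CPM in Rpl22-/- replicates 1, 2 and 3, and at 36.9, 39.1 and 31.2 CPM in Rpl22+/+ replicates 1, 2 and 3. The groups overlapped by less than 1 CPM, through Rpl22-/- replicate 2 and Rpl22+/+ replicate 3. On the log2 scale the difference was −0.31 (standard error 0.121, 95% interval −0.57 to −0.06, adjusted p = 0.138). A pseudogene copy of *Dnajb9*, *Gm6568*, is 93.3% identical over 697 bases and had 1 read in all 6 libraries, so reads of the shared stretch are uncertain.

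*Edem1* helps to bring misfolded glycoproteins to degradation and is an Xbp1 target as well (forward strand, chromosome 6 from 108828641 to 108859356). Its Rpl22-/- libraries were almost equal, at 54.2, 54.7 and 53.5 CPM in replicates 1, 2 and 3, against 68.8, 73.0 and 57.1 CPM in Rpl22+/+ replicates 1, 2 and 3. *Edem1* was the only one of the 10 genes whose groups did not overlap, which held for 26.9% of all genes tested. The log2 fold change was −0.30 (standard error 0.0994, 95% interval −0.51 to −0.08, adjusted p = 0.0896).

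The 4 genes of the branch thus had estimates between −0.35 and −0.30 on the log2 scale, close to a level in Rpl22-/- HSCs of 0.784 to 0.814 times that in Rpl22+/+ HSCs. Each had an unadjusted p below 0.05, in the direction lower in Rpl22-/-, as did 10.7% of all genes tested. The estimate of each stayed below 0 in all 16 alternatives. The branch was set apart by role with earlier results of these data known, so its shared direction is a description and was not tested. Other splits by role are possible, since *Dnajb9* is also a co-chaperone and *Edem1* also acts in degradation. The members grouped elsewhere belong to the targets of this response too. Their estimates ran from −0.14 for *Hspa5* to 0.38 for *Calr*, with *Pdia4*, *Herpud1* and *Sdf2l1* at 0.01, 0.05 and 0.14. In RNA from sorted pools, fewer cells with a transcript and less of it per cell cannot be told apart.

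**Figure D2:**
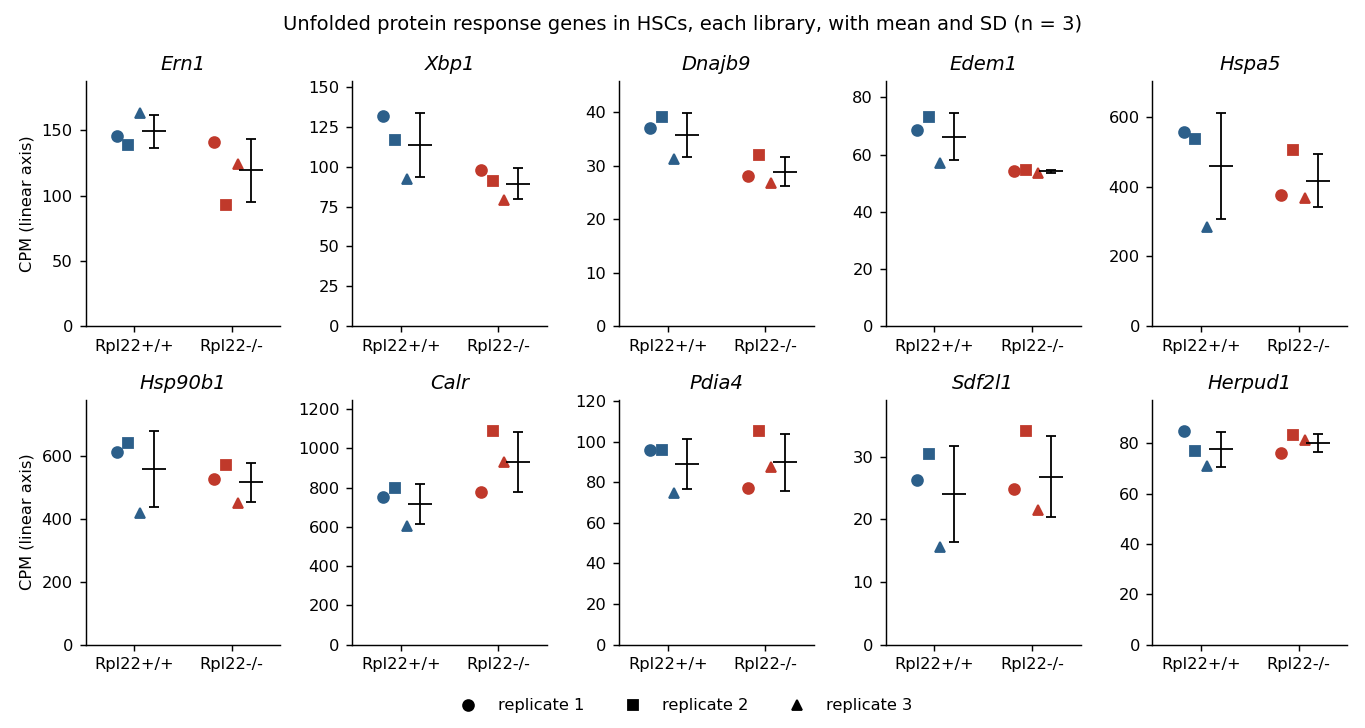
CPM of each member in every library on linear axes that start at 0, with circles, squares and triangles for replicates 1, 2 and 3 and black bars for mean and SD (n = 3). *Edem1* is the only member whose genotypes do not overlap, and Rpl22+/+ replicate 3 (blue triangle) is the lowest library for *Hspa5*, *Hsp90b1*, *Calr*, *Pdia4*, *Sdf2l1* and *Herpud1*.

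Among the chaperones, *Hspa5* encodes BiP, the main Hsp70 chaperone of the ER lumen, which also holds the stress sensors inactive (forward strand, chromosome 2 from 34771970 to 34777547). It was at 378, 505 and 369 CPM in Rpl22-/- replicates 1, 2 and 3 and at 559, 537 and 285 CPM in Rpl22+/+ replicates 1, 2 and 3. Rpl22+/+ replicate 3 was the lowest of all 6 libraries and the other 2 Rpl22+/+ libraries the highest. The SD within Rpl22+/+ HSCs was 33.1% of the mean, the largest of any member, and the log2 fold change was −0.14 (standard error 0.188, 95% interval −0.54 to 0.26, adjusted p = 0.709). Without Rpl22+/+ replicate 3 it was −0.39 (adjusted p = 0.133), and without Rpl22+/+ replicate 1 it was 0.02.

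*Hsp90b1* encodes Grp94, the Hsp90 chaperone of the ER (reverse strand, chromosome 10 from 86690209 to 86705509). It was at 529, 573 and 450 CPM in Rpl22-/- replicates 1, 2 and 3 and at 613, 643 and 421 CPM in Rpl22+/+ replicates 1, 2 and 3, the same arrangement as for *Hspa5*. The log2 fold change was −0.11 (standard error 0.136, 95% interval −0.40 to 0.18, adjusted p = 0.681). Part of *Hsp90b1*, 415 exonic bases, is shared with *1810014B01Rik* on the opposite strand, a symbol that the count table does not hold. On the same strand it shares 84 exonic bases with *Gm15344*, which had 23 to 56 reads per library. It also shares 133 with *Gm25745*, which the count table does not hold either. The strand setting of the counting is not given in the sources used here, so the level of *Hsp90b1* is uncertain to that extent.

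*Calr* encodes calreticulin, which binds calcium and folds glycoproteins in the ER (reverse strand, chromosome 8 from 84841850 to 84846934). It was at 780, 1086 and 931 CPM in Rpl22-/- replicates 1, 2 and 3. In Rpl22+/+ replicates 1, 2 and 3 it was at 751, 798 and 603 CPM. The groups overlapped through Rpl22-/- replicate 1, which lay between Rpl22+/+ replicates 1 and 2. This gave a log2 fold change of 0.38 (standard error 0.126, 95% interval 0.11 to 0.65, adjusted p = 0.0879), the largest above 0 among the 10 genes. DESeq2 gave 0.38 with an adjusted p of 0.0329. Without Rpl22-/- replicate 1 the estimate was 0.50 (adjusted p = 0.0107), while without Rpl22-/- replicate 2 it was 0.25 (adjusted p = 0.274) and without Rpl22+/+ replicate 3 it was 0.27 (adjusted p = 0.314). A pseudogene copy, *Calr-ps*, is 92.5% identical to *Calr* over 495 bases, and reads of that stretch are uncertain.

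*Pdia4*, a protein disulfide isomerase (reverse strand, chromosome 6 from 47796141 to 47813430), was at 77.1, 105 and 87.6 CPM in Rpl22-/- replicates 1, 2 and 3 and at 95.9, 96.2 and 74.8 CPM in Rpl22+/+ replicates 1, 2 and 3. The Rpl22+/+ libraries lay within the spread of the Rpl22-/- libraries apart from replicate 3. The log2 fold change was 0.01 (95% interval −0.24 to 0.26, adjusted p = 0.968), and its sign changed in 5 of the 16 alternatives, library size alone among them. *Sdf2l1*, a part of BiP chaperone complexes (reverse strand, chromosome 16 from 17130138 to 17132383), had an SD of 32.0% of its mean within Rpl22+/+ HSCs, second to *Hspa5*, with 24.9, 34.0 and 21.6 CPM in Rpl22-/- replicates 1, 2 and 3 and 26.3, 30.4 and 15.5 CPM in Rpl22+/+ replicates 1, 2 and 3. It rested on 149 to 409 reads per library. Its log2 fold change was 0.14 (95% interval −0.29 to 0.58, adjusted p = 0.733), with the sign changed in 3 alternatives.

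*Herpud1*, a membrane protein of the degradation complex (forward strand, chromosome 8 from 94386438 to 94395377), had the estimate nearest to 0 among the 4 genes with a full promoter element. It was at 76.2, 83.1 and 81.5 CPM in Rpl22-/- replicates 1, 2 and 3 and at 84.7, 77.1 and 71.0 CPM in Rpl22+/+ replicates 1, 2 and 3, with the groups interleaved. The log2 fold change was 0.05 (95% interval −0.14 to 0.24, adjusted p = 0.807), so that a change as large as the estimates of the Ire1-Xbp1 branch lay outside its interval. The intervals of the 4 genes of that branch overlapped with that of *Herpud1*, and differences between genes were not tested. The sign of *Herpud1* changed in 3 alternatives, those with length and GC trends removed and the one without Rpl22+/+ replicate 3.

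**Figure D3:**
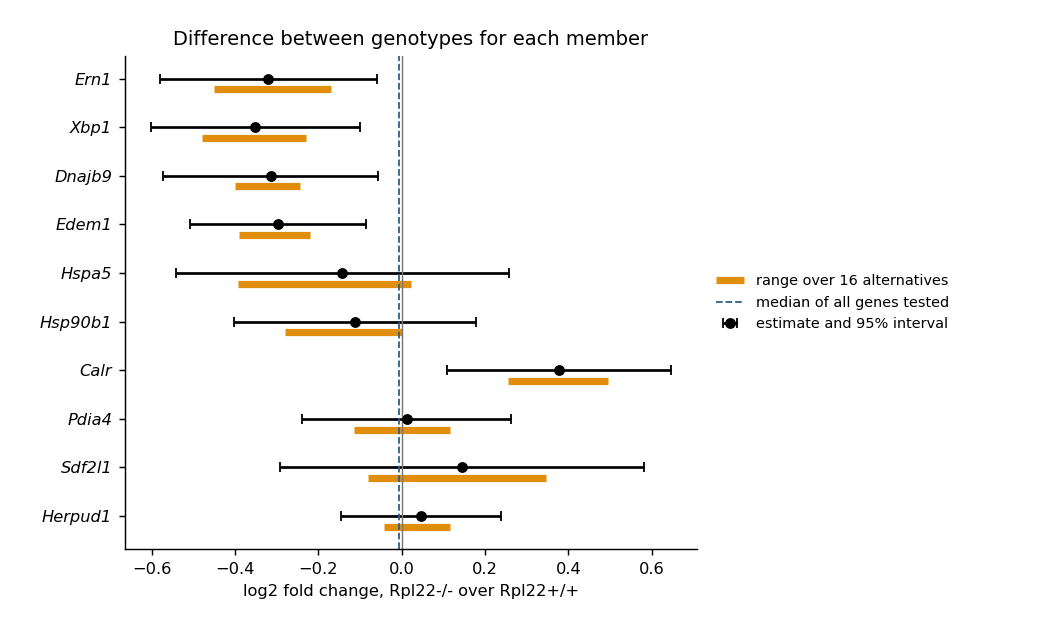
log2 fold change of each member between Rpl22-/- and Rpl22+/+ HSCs with its 95% interval (black), the range of the estimate over 16 alternatives (orange) and the median of all genes tested (dashed line, −0.01). The intervals of *Ern1*, *Xbp1*, *Dnajb9*, *Edem1* and *Calr* leave out 0 before adjustment for the number of genes tested, and the ranges of *Hspa5*, *Hsp90b1*, *Pdia4*, *Sdf2l1* and *Herpud1* include values on both sides of 0.

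Counted over the 10 genes, 4 had an estimate above 0 and 6 below it, with a median log2 fold change of −0.13 beside −0.01 for all genes tested. At an unadjusted p below 0.05, 5 of the 10 genes passed, 4 below 0 and 1 above, where 22.3% of all genes tested passed. At an unadjusted p below 0.001, a filter used in the methods of the study, 0 of the 10 and 3.34% of all genes passed. At an unadjusted p below 0.05 with an adjusted p below 0.2, a wider rule also used in the study, the same 5 of the 10 and 20.1% of all genes passed. By DESeq2 1 member, *Calr*, had an adjusted p below 0.05, as had 1057 of the 14004 genes tested. By limma-voom 0 members had, beside 742 of 14004 genes. The 3 members whose windows held CCAAT and CCACG at the full spacing, *Hspa5*, *Hsp90b1* and *Calr*, had estimates of −0.14, −0.11 and 0.38, and thus did not share a direction.

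The 5 chaperones shared their lowest library, while their highest differed. Rpl22+/+ replicate 3 was the lowest library for 6 of the 10 genes, namely the 5 chaperones and *Herpud1*, and the highest for *Ern1*. The summed level of the 5 chaperones was 1399 CPM in Rpl22+/+ replicate 3, against 2046 and 2104 CPM in Rpl22+/+ replicates 1 and 2 and 1789, 2304 and 1860 CPM in Rpl22-/- replicates 1, 2 and 3. Rpl22-/- replicate 2 had the highest sum and was the highest library for *Calr*, *Pdia4* and *Sdf2l1*, whereas *Hspa5* and *Hsp90b1* were highest in Rpl22+/+ replicates 1 and 2. On the log2 scale, the chaperones lay on average 0.45 below their own mean over the 6 libraries in Rpl22+/+ replicate 3 (deviation −0.45) and 0.30 above it in Rpl22-/- replicate 2. The genes of the Ire1-Xbp1 branch were divided otherwise, with average deviations of 0.24, 0.22 and 0.02 in Rpl22+/+ replicates 1, 2 and 3 and of −0.07, −0.20 and −0.21 in Rpl22-/- replicates 1, 2 and 3.

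**Figure D4:**
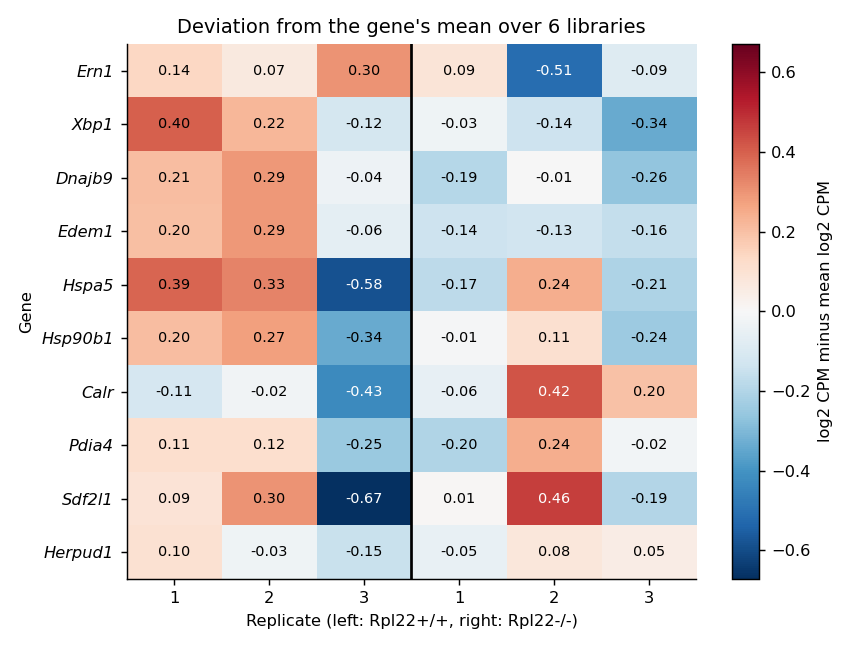
Deviation of each member in each library from its own mean log2 CPM over 6 libraries, with red above and blue below the mean, Rpl22+/+ left and Rpl22-/- right of the line. In Rpl22+/+ replicate 3 the 5 chaperones are all below their mean (average −0.45) while *Ern1* is above it, and the top 4 rows, the Ire1-Xbp1 branch, are below 0 in Rpl22-/- replicates 2 and 3.

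The libraries with the lowest and the highest chaperone levels were those that stood apart in some markers of other cell types. Rpl22+/+ replicate 3 had a summed level of 85.1 CPM over 11 plasma cell markers, against 14.1 to 25.1 CPM in the other 5 libraries. In that library *Ighg2b* was at 40.4, *Igkc* at 19.4 and *Igj* at 6.35 CPM, each the highest of all libraries. *Sdc1* and *Derl3* were lowest there, and *Iglc2* had 1 read. *Tnfrsf17*, *Prdm1*, *Irf4*, *Fkbp11* and *Ighm* lay within the range of the other libraries. Of 5 plasma cell markers tested between the genotypes 0 passed. Of the defining markers, *Igkc* and *Ighg2b* had 0 reads in all 3 Rpl22-/- libraries. Rpl22-/- replicate 2 had a summed level of 470 CPM over 13 neutrophil and monocyte markers, with a range of 289 to 470 CPM in Rpl22-/- and of 274 to 317 CPM in Rpl22+/+ HSCs. The share of these cells in the levels of the members was not tested. Without Rpl22+/+ replicate 3 the median log2 fold change of the 10 genes was −0.27. Of them 1, *Xbp1*, had an adjusted p below 0.05, as had 241 of the 14235 genes tested. Without Rpl22-/- replicate 2 the median was −0.18, and 0 of them had, beside 370 of 14293 genes.

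Markers of other lineages also moved with genotype. Of 10 megakaryocyte markers, 9 were tested and 7 rose in Rpl22-/- HSCs, with 2 to 6 called when a library was left out, fewest without Rpl22+/+ replicate 1, and with summed levels of 1169 to 1449 CPM in Rpl22-/- and 832 to 1086 CPM in Rpl22+/+ HSCs. Among the neutrophil and monocyte markers 13 of 13 were tested and 2 rose, *Ctsg* and *Camp*. Of these 13 markers, 12 had an estimate above 0 and 7 an unadjusted p below 0.05. Their median was 1.43 on the log2 scale, and *Mpo* had 2.32 (adjusted p = 0.0642). Without Rpl22-/- replicate 2 the median of the 13 was 0.74 with 10 above 0, and 0 were called, as was so without Rpl22-/- replicate 3 and without Rpl22+/+ replicate 2. Of 11 erythroid markers 4 were tested and *Car1* fell by 1.37 on the log2 scale. The erythroid sums were 31.5 to 37.0 CPM in Rpl22-/- and 32.8 to 43.5 CPM in Rpl22+/+ HSCs. The *Car1* groups overlapped, with Rpl22+/+ replicate 3 at 4.68 CPM and Rpl22-/- replicate 3 at 5.09 CPM. No erythroid marker was called by limma-voom, nor without any one of Rpl22-/- replicates 2 and 3 and Rpl22+/+ replicates 1 and 2. The B cell list had sums of 27.5 to 30.7 and 24.8 to 26.4 CPM and the T and NK cell list of 47.5 to 56.4 and 38.6 to 44.7 CPM in Rpl22-/- and Rpl22+/+ HSCs, with none of their 2 and 3 tested genes past the threshold. None of the HSC list passed it either. Whether the makeup of the sorted cells moved the members was not tested.

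The wider machinery around the 10 genes was read from lists written by function. Among 27 other ER chaperones and folding enzymes, all tested, 1 rose and 1 fell, beside the 5.57% of all genes that passed, and their median log2 fold change was 0.04. *Prkcsh*, a subunit of the glucosidase that trims glycoproteins for the calreticulin cycle, rose from 98.0 ± 3.02 CPM (SD, n = 3) in Rpl22+/+ to 133 ± 7.47 CPM in Rpl22-/- HSCs (log2 fold change 0.44, adjusted p = 0.00894). *Ero1l*, the oxidase that drives disulfide formation, fell from 69.6 ± 6.25 to 53.8 ± 6.30 CPM (log2 fold change −0.37, adjusted p = 0.0466). *Fkbp2*, a prolyl isomerase of the ER, was next at 0.40 (adjusted p = 0.0651) and did not pass.

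Among 24 genes of ER-associated degradation, all tested, 2 rose and 0 fell, with a median of 0.00. *Aup1*, which recruits ubiquitin-conjugating enzymes, rose from 96.3 ± 6.31 to 121 ± 5.45 CPM (log2 fold change 0.33, adjusted p = 0.0321). *Os9*, a lectin that passes misfolded glycoproteins to the degradation complex, rose from 151 ± 9.54 to 188 ± 3.05 CPM (log2 fold change 0.31, adjusted p = 0.0371). *Vcp*, the ATPase that extracts proteins from the membrane, had −0.24 (adjusted p = 0.154). Of 17 genes of the translocon, signal peptidase and signal sequence receptor, all tested, 0 passed, and those with the smallest p were *Ssr4* at 0.27, *Sec63* at −0.20 and *Ssr2* at 0.20.

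The other sensors did not pass. Of 6 sensor and protease genes 5 were tested, with a median of −0.07, and *Atf6*, *Mbtps2* and *Mbtps1* had the smallest p with log2 fold changes of −0.14, −0.12 and 0.06. *Eif2ak3*, which encodes Perk and is named here after its value was seen, was at 34.9 ± 4.45 CPM in Rpl22-/- and 36.7 ± 1.17 CPM in Rpl22+/+ HSCs (adjusted p = 0.759). Of 11 genes of the Perk arm 9 were tested, 2 rose and 0 fell, with a median of 0.29. This median was 0.08 without Rpl22-/- replicate 2, 0.11 without Rpl22-/- replicate 1, 0.06 with length and GC trends removed and 0.06 with no filter. *Ppp1r15a*, the phosphatase subunit that reverses the block of translation, rose from 34.4 ± 1.46 to 50.5 ± 1.94 CPM (log2 fold change 0.55, adjusted p = 0.00639). *Atf4*, the transcription factor of this arm, rose from 139 ± 6.46 to 182 ± 20.3 CPM (log2 fold change 0.38, adjusted p = 0.0282), a call that was lost with length and GC trends removed, and *Sesn2* had 0.42 (adjusted p = 0.215). *Ddit3*, which encodes the stress factor Chop and is likewise named after its value was seen, had −0.21 (adjusted p = 0.345). The list is named by role, and neither the activity of Perk nor the translation of *Atf4* was measured.

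Of 10 transcripts reported as cleaved by Ire1, 5 were tested, of which 2 rose and 0 fell. By estimate, 3 were above 0 and 2 below it, the lowest at −0.33, with a median of 0.24. This median was 0.07 without Rpl22-/- replicate 2, 0.08 without Rpl22+/+ replicate 3 and −0.26 with no filter. *Ergic3* rose from 78.3 ± 5.95 to 98.8 ± 5.08 CPM (log2 fold change 0.34, adjusted p = 0.0370) and *Itgb2* from 48.6 ± 8.07 to 64.2 ± 3.14 CPM (log2 fold change 0.41, adjusted p = 0.0491), while *Tapbp* had 0.24 (adjusted p = 0.119). Cleavage itself was not measured, and neither call held with library size as the only scaling. The cytosolic and mitochondrial heat shock paralogs served as a comparison outside the ER. Of 15, 12 were tested and 0 passed, with a median of 0.06, and *Hsph1*, *Hsp90ab1* and *Dnaja1* had the smallest p with log2 fold changes of −0.41, 0.22 and −0.30. None of these lists was tested as a set. Of the 8 calls in these lists, that of *Ppp1r15a* passed in 16 of 16 alternatives and that of *Prkcsh* in 15, all but the one without Rpl22+/+ replicate 1 (adjusted p = 0.0550). The other 6 passed in 8 or 9 of 16, kept their direction in all, and were lost without any one of Rpl22-/- replicate 3 and Rpl22+/+ replicates 1, 2 and 3, with the highest adjusted p between 0.125 and 0.219.

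**Figure D5:**
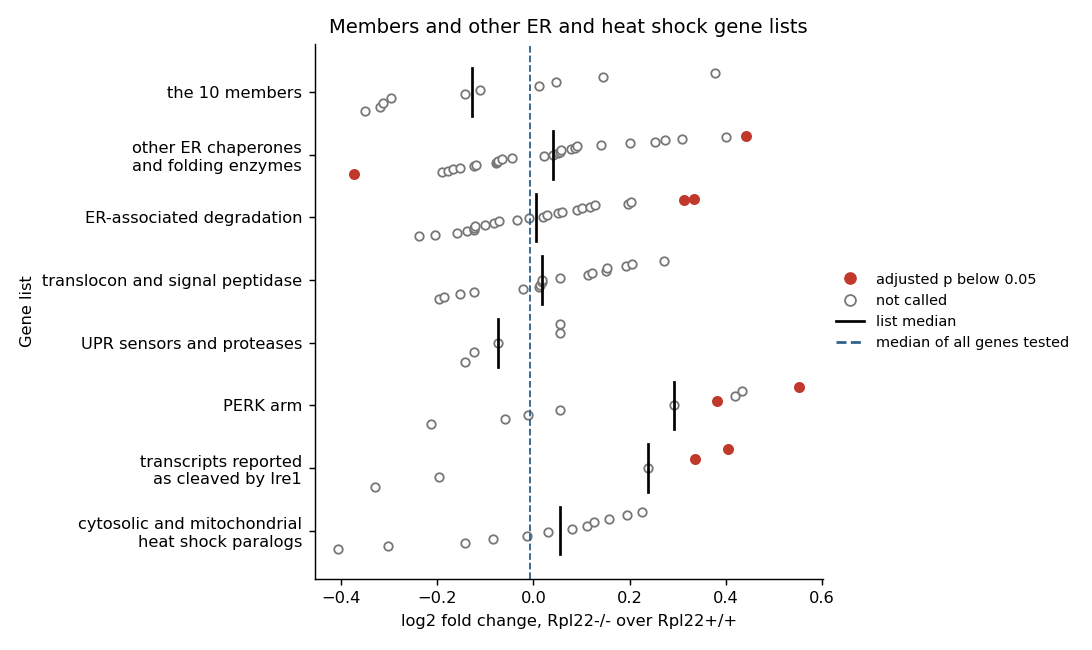
log2 fold change between Rpl22-/- and Rpl22+/+ HSCs of every tested gene of the 10 members and 7 other lists, with filled points for an adjusted p below 0.05, black lines for list medians and a dashed line for the median of all genes tested. No member is filled, and the 8 filled points are *Prkcsh*, *Ero1l*, *Aup1*, *Os9*, *Ppp1r15a*, *Atf4*, *Ergic3* and *Itgb2*.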

How the data were processed

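RNA-seq libraries of polyA+ RNA were made from sorted HSCs with the TruSeq kit. The authors checked reads with FastQC, aligned them to mm10 with TopHat2 2.1.1 and deposited gene counts from HTSeq, as whole numbers without normalization. The annotation and strand setting of the counting are not given in the sources used here. The 5 summary lines of HTSeq, which held 58.6% to 60.9% of the counts per library, 50.3% to 52.7% being reads on no annotated feature, entered neither library sizes nor tests, and 0 per-sample columns were left unused. Counts of all replicate pairs differed beyond sampling noise, so none was a repeat deposit.

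The remaining steps started from these counts. Genes were filtered with filterByExpr at a minimum count of 10, which left 14004, and scaled by TMM in edgeR 4.0.16 under R 4.3.3, where the quasi-likelihood test compared the 3 Rpl22-/- with the 3 Rpl22+/+ libraries without covariates, with p-values adjusted by Benjamini-Hochberg over the genes tested. Adjusted p-values are from this test unless another tool is named. Standard errors were derived from each fold change and its F statistic, and intervals are at 95%. CPM are TMM-scaled, and exon lengths and positions came from GENCODE M21 on GRCm38 (mm10), in which 29042 symbols matched directly and 1906 through an older symbol. Copies were searched with BLAST 2.17.0. The fits were tested on simulated data with 2-fold changes, which exceed the estimates of all members. Their power at smaller changes was not tested.

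Members and gene lists (other ER chaperones, ER-associated degradation, translocon, sensors, Perk arm, transcripts cleaved by Ire1, heat shock paralogs, and markers of HSCs and of plasma, B, T and NK, neutrophil and monocyte, erythroid and megakaryocyte cells) were chosen with earlier results of these data known. Genes named are all members, *Rpl22*, the 3 smallest p of each pathway list, and others marked as such or named as markers after their values were seen. Alternatives were library size alone, factors by upper quartile or relative log expression, limma-voom (limma 3.58.1), DESeq2 1.42.0, no filter, at least 10 counts in every library, each library left out, a replicate block, and removal of length and GC trends (lowess, span 0.3, for the 95.5% of genes with both) without and with the block. The wider threshold was added after seeing the data. Tables and plots were made in Python 3.11.15 with numpy 2.4.6, pandas 2.3.3 and matplotlib 3.10.9.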

Additional observations from a re-analysis of the deposited data

How the results depend on the processing

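The log2 fold change of *Rpl22* kept its direction and call in all 16 alternatives, between −3.81 and −3.65. The count of members past the threshold was 0 and became 1 with DESeq2 (*Calr*), 3 with no filter (*Xbp1*, *Ern1* and *Calr*), 1 with the replicate block (*Xbp1*) and 1 with length and GC trends removed with the replicate block (*Xbp1*). Leaving out a library gave between 0 and 3, with 3 without Rpl22-/- replicate 1 (*Xbp1*, *Ern1* and *Calr*), 1 without Rpl22+/+ replicate 3 and 0 without any other. Of all genes tested, 1057 of 14004 passed with DESeq2 and 1422 of 20635 with no filter. With the replicate block 904 of 14004 passed, and with the trends removed as well 585 of 14004. Without Rpl22-/- replicate 1, 1720 of 14243 genes passed, and without Rpl22+/+ replicate 3, 241 of 14235. The cause of these shifts in the member count was not tested. The median of the members ranged from −0.27 to −0.01 when a library was left out, lowest without Rpl22+/+ replicate 3, and from −0.17 to −0.05 in the other alternatives. The 780 genes past the threshold became 1422 with no filter, 466 with length and GC trends removed and 2813 at the wider rule of an unadjusted p below 0.05 with an adjusted p below 0.2, which was chosen after seeing the data and passed 5 members, and ranged from 127 (without Rpl22-/- replicate 3) to 1720 (without Rpl22-/- replicate 1) when a library was left out. Of the genes called, 58.8% were higher in Rpl22-/- HSCs, against 43.4% with library size alone, 66.5% with length and GC trends removed and 56.1% to 69.3% with a library left out. Reversed estimates were those of *Pdia4* with library size alone (−0.0337) and, with length and GC trends removed, of *Herpud1* (−0.0414), *Sdf2l1* (−0.0292) and *Pdia4* (−0.0388), and with the block added of *Herpud1* (−0.0391) and *Pdia4* (−0.0388). Leaving out a library took *Hspa5* from −0.393 (without Rpl22+/+ replicate 3) to 0.0220 (without Rpl22+/+ replicate 1), *Hsp90b1* from −0.280 (Rpl22+/+ replicate 3) to 4.24e-05 (Rpl22+/+ replicate 2), *Herpud1* from −0.0123 (Rpl22+/+ replicate 3) to 0.116 (Rpl22+/+ replicate 1), *Sdf2l1* from −0.0817 (Rpl22+/+ replicate 3) to 0.345 (Rpl22+/+ replicate 2) and *Pdia4* from −0.114 (Rpl22-/- replicate 2) to 0.115 (Rpl22-/- replicate 1). Of the other lists, the count with a library left out ranged from 0 to 4 for chaperones, 0 to 2 for degradation, 1 to 2 for the Perk arm and 0 to 3 for Ire1-cleaved transcripts, and the 2 calls each in degradation and in Ire1-cleaved transcripts became 0 with library size alone and with length and GC trends removed. The labels do not say whether equal replicate numbers pair the libraries. Deviations of same-numbered libraries correlated at −0.10, 0.05 and 0.04, which cannot decide this with 3 libraries per genotype. The replicate block gave 904 genes in all, against 780 without it. The medians of the chaperone, degradation, sensor and heat shock lists lay between −0.11 and 0.17 when a library was left out, on both sides of 0 for each.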
